A study of Homo sapiens with 4 samples.

Results

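The genes described here carry water, sodium, potassium, chloride and bile acids across epithelial membranes. There are 9 of them among the 26255 gene symbols measured: the water channels AQP1 and AQP3, the sodium channel subunit SCNN1A, the sodium-potassium-chloride cotransporter SLC12A2, the chloride channel CFTR, the sodium pump subunits ATP1B1 and ATP1B3, and the bile acid and steroid exporter subunits SLC51A and SLC51B. They were chosen by function and on measured values, since AQP3 had already stood out on Matrigel and AQP3 and SLC51B were already known to be low in 2D hypoxia. Levels and pairwise ratios are therefore given as descriptions without a test. The cells were A549, an established line from a human lung adenocarcinoma, labelled as wild type. They were grown for 5 days with 5% serum, either on a bed of set Matrigel, a basement membrane extract (3D), or on a plain culture dish (2D), and under normoxia or under hypoxia with 1% oxygen. The oxygen level of normoxia is not given. The groups are normoxia and hypoxia in 3D and the same pair in 2D, with 1 library each, so pairwise differences have no replicate check. The study set out to characterise the micropapillary-like structures that hypoxia induces in these cells.

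As background, an epithelium moves water by first moving salt. The sodium pump in the basolateral membrane, made of a catalytic subunit, a beta subunit that brings it to the cell surface and often a small FXYD regulator, keeps sodium low inside the cell. Sodium then enters from the lumen through the channel ENaC in absorbing epithelia, while in secreting epithelia SLC12A2 loads chloride from the basolateral side and CFTR and other anion channels release it into the lumen. Water follows through aquaporins, of which AQP1 carries water alone and AQP3 carries water and glycerol. In the lung these proteins set the depth of the airway surface liquid and clear fluid from the alveoli. SLC51A and SLC51B form a heteromer that exports bile acids and steroids and works only when both subunits are present.

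Values are FPKM, fragments per kilobase of transcript scaled for depth, which is per length and so allows levels of different genes to be set side by side. Log2 ratios and the 2-fold threshold use FPKM + 1, which understates the differences of low genes. All other fold values are ratios of FPKM itself. A gene with a mean below 1 FPKM over the 4 libraries was taken as not expressed, and 12663 symbols passed. Depth inferred from the smallest steps of the values was about 11400000 to 11800000 fragments in the 3D libraries and 23800000 and 38500000 in 2D normoxia and 2D hypoxia, so that depth differed with culture. Errors of ratios below are counting errors from that depth and leave out variation between cultures. All 5 hypoxia markers rose in hypoxia by limma, with CA9 at 4.05 and 3.999 FPKM in 3D and 2D normoxia and 199.7 and 138.5 in 3D and 2D hypoxia. The epithelial identity was present (6 of 6 markers expressed, summed level 5205 to 8316 FPKM). That sum was nearly all KRT8, KRT18 and KRT7, while CDH1 stood at 24.6 to 37.3 FPKM and EPCAM at only 1.43 to 2.73. Of 8 alveolar type II markers only ABCA3 and NAPSA were expressed, and SFTPA1 was listed at 0 in every library. Of the markers of other cells, 0 of 3 basal and 0 of 4 endothelial markers were expressed. Of 5 blood markers CD14 alone was expressed (3.44 to 11.4 FPKM), and of 4 fibroblast markers COL1A1 alone (0.614 to 13.2 FPKM, highest in 2D hypoxia). Of 4 ciliated cell markers TPPP3 and CCDC78 were expressed and FOXJ1 was at most 0.230 FPKM. The summed level was 27.3 and 50.6 FPKM in 3D normoxia and hypoxia and 9.60 and 5.64 in 2D. The higher sum in 3D hypoxia was nearly all due to TPPP3, at 22.6 and 46.9 FPKM in 3D normoxia and hypoxia. CCDC78 went the other way, at 4.10 and 3.03 FPKM in those libraries, as did PIFO, at 0.534 and 0.372. Of 6 alveolar type I markers 3 were expressed, HOPX and PDPN were listed at 0, and the summed level was 31.0 and 110.2 FPKM in 3D and 69.1 and 210.5 in 2D. That sum was nearly all CAV1 (27.9, 108.2, 65.6 and 207.2 FPKM), which other cells also express, while AGER and RTKN2 stayed between 0.468 and 2.14 FPKM. The part of such cells in the results below was not tested. In these bulk samples fewer cells of a type and less RNA per cell cannot be told apart.

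Of the 9 genes, 6 were expressed: ATP1B1, ATP1B3, AQP3, SLC12A2, SLC51B and SCNN1A. AQP1, SLC51A and CFTR were not. At the boundary, SCNN1A had a mean of 3.36 FPKM and AQP1 a mean of 0.407. The 6 expressed genes fell into different orders over the libraries. AQP3 and SCNN1A stood, from high to low, in the order 3D normoxia, 3D hypoxia, 2D normoxia, 2D hypoxia. SLC12A2 and SLC51B differed from that only in that 2D normoxia stood above 3D hypoxia. ATP1B1 went the other way with oxygen and was highest in 3D hypoxia, while ATP1B3 varied by only 1.33-fold between its highest and lowest library. 2D hypoxia was thus the lowest library for AQP3, SCNN1A, SLC12A2 and SLC51B.

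**Figure D1:**
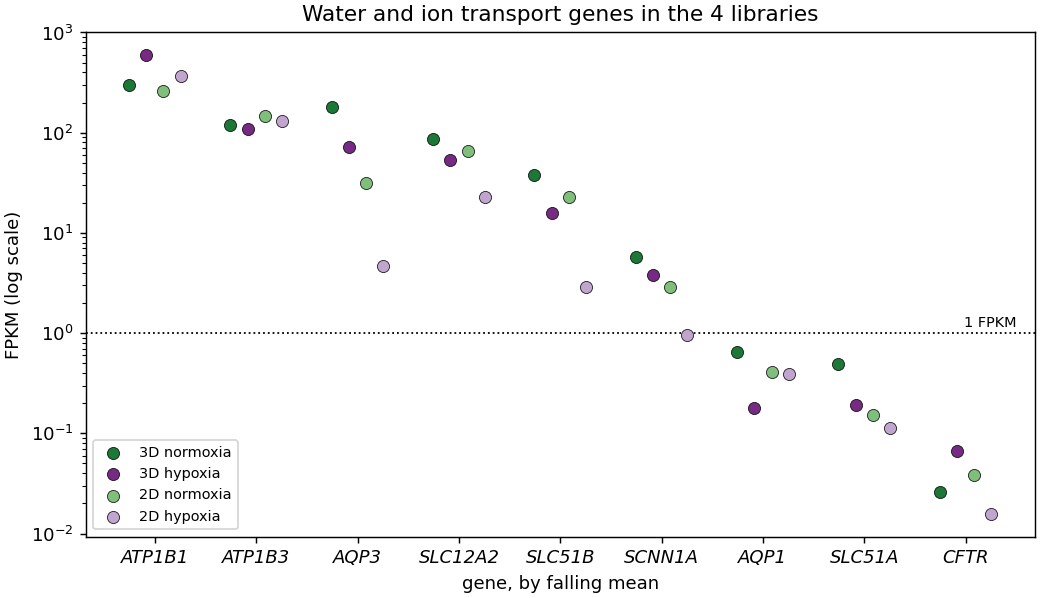
FPKM (log scale) of the 9 genes in the 4 libraries, 1 point per library, ordered by mean. The dotted line marks 1 FPKM; AQP3, SLC12A2, SLC51B and SCNN1A have their lowest point in 2D hypoxia, and AQP1, SLC51A and CFTR lie below the line in every library.

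Promoter sequence was taken from RefSeq (GRCh38.p14) for 8 of the 9 genes, all but SCNN1A. The bases before the start are shown for the members at least 2-fold lower in hypoxia in 1 or both cultures, AQP3 at chr9:33447594-33447843 (minus strand), SLC51B at chr15:65045137-65045386 (plus strand) and SLC12A2 at chr5:128083516-128083765 (plus strand), and for ATP1B1 at chr1:169106440-169106689 (plus strand), which was higher in hypoxia in both. Each run holds 250 bases, 5′ to 3′ along the gene, and ends at the base before the annotated start. Capitals mark the letters ACGTG or GCGTG, the core of the site that HIF binds, on either strand.
AQP3: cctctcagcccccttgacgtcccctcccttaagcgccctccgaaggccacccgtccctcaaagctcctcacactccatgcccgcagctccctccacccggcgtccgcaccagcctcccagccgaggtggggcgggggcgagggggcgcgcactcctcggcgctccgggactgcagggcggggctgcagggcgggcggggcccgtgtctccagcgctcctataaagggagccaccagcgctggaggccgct
SLC51B: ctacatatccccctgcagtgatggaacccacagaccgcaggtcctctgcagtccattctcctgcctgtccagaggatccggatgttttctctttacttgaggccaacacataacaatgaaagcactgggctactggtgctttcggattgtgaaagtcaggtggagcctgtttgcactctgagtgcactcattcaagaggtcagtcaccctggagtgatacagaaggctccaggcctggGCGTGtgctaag
SLC12A2: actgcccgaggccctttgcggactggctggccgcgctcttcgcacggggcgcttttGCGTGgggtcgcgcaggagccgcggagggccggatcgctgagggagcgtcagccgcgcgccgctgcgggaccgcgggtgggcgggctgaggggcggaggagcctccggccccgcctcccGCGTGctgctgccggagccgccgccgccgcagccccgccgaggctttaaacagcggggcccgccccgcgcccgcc
ATP1B1: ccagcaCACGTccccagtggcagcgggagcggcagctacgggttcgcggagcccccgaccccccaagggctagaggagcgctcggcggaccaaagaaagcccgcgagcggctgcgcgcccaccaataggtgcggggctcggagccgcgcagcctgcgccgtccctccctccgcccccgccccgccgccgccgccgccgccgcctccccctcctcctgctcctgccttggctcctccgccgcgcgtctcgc

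The search covered 250 bases before to 50 after the start, on both strands, and 4 of the 8 members held at least 1 match, where 48.4% of the 35116 promoters in the table did. AQP3 held 0 matches, SLC51B held 1 that begins 12 bases before the start, SLC12A2 held 2 that begin 194 and 75 bases before it, and ATP1B1 held 1 that begins 244 bases before it. ATP1B3, whose levels varied least, held 2 that overlap by 1 base. AQP1, SLC51A and CFTR held 0. A match is only a run of letters, and its absence says nothing about binding elsewhere.

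AQP3, the aquaglyceroporin, had the widest span of the expressed members. On Matrigel it stood at 179.9 FPKM under normoxia and 72.0 under hypoxia, and on the dish at 31.2 and 4.65, a 38.7-fold span that rested on about 3961, 1532, 1386 and 335 fragments. Both 3D libraries lay above both 2D libraries, and within each culture the hypoxic library was the lower one. In 3D normoxia AQP3 was above 96.7% of the expressed genes, and in 2D hypoxia above 26.5%. The difference between cultures was 5.77-fold in normoxia and 15.5-fold in hypoxia. Over the 12 aquaporin family genes listed, AQP3 made up 95.1% of the summed FPKM under normoxia and 92.1% under hypoxia on Matrigel, and 84.6% and 61.7% on the dish, while the sum itself was 189.2, 78.1, 36.8 and 7.54 FPKM. In GENCODE 29 the exons of AQP3 overlap no other gene.

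AQP1, the water channel of endothelium and many epithelia, stood at 0.648 and 0.180 FPKM on Matrigel under normoxia and hypoxia, and at 0.412 and 0.389 on the dish. Series of 4 values in a row are given in that order. These values rest on about 22.2, 5.9, 28.6 and 43.6 fragments, and no difference is drawn from them. Of the 10 other aquaporin genes listed, AQP7 and AQP11 were expressed. AQP7, another glycerol channel, had the same order as AQP3, at 6.16, 4.06, 2.37 and 0.559 FPKM, but it has near-identical pseudogene copies that can share its reads and is uncertain for that reason. AQP11, an intracellular aquaporin, stood between 1.52 and 2.47 FPKM. AQP5, the water channel of alveolar type I cells and serous glands, was listed at 0 in 3 libraries and at 0.0930 FPKM in 2D normoxia.

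SCNN1A, the alpha subunit of ENaC, stood at 5.78 FPKM under normoxia and 3.81 under hypoxia on Matrigel, and at 2.90 and 0.951 on the dish. Both 3D libraries were above both 2D libraries, and in hypoxia the 3D library was 4.01-fold higher than the 2D one. Its partners were below the expression limit, with SCNN1B, the beta subunit, at 0.545, 0.368, 0.409 and 0.107 FPKM and SCNN1G, the gamma subunit, between a listed 0 and 0.0342 FPKM. The values of SCNN1A carry a further limit. Its exons overlap those of LTBR on the other strand, LTBR stood at 153.9, 128.5, 157.5 and 74.6 FPKM in the same order, and no label or header gives the strand setting of the authors' counting, so reads from the overlap cannot be told apart.

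SLC12A2, which loads chloride into secreting cells, stood above SCNN1A in every library. On Matrigel it stood at 86.1 FPKM under normoxia and 53.0 under hypoxia, and on the dish at 65.5 and 22.7. The normoxic libraries were above the hypoxic ones in either culture, and the lowest library was 3.80-fold below the highest. CFTR, the apical chloride channel, was near the limit of detection, at 0.0258, 0.0674, 0.0380 and 0.0157 FPKM, which corresponds to about 1.9, 4.7, 5.5 and 3.7 fragments over a transcript of 6132 bases. No order among those values can be read at this depth.

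The sodium pump beta subunits ATP1B1 and ATP1B3 were high in all libraries. ATP1B1 stood at 297.4 FPKM under normoxia and 593.3 under hypoxia on Matrigel, and at 261.9 and 371.9 on the dish, above 98.0% or more of the expressed genes in each. It was higher in hypoxia in both cultures, by just under 2.00-fold in 3D and 1.42-fold in 2D, and both hypoxic libraries were above both normoxic ones. ATP1B3, another beta subunit, stood at 119.6, 109.2, 145.2 and 131.5 FPKM in the same order of libraries. The share of ATP1B1 in the summed beta subunit FPKM was 71.3%, 84.4%, 64.3% and 73.9%, and ATP1B2 was at most 0.0724 FPKM. ATP1B1 overlaps NME7 on the other strand, which was at 21.2 to 40.8 FPKM and, like ATP1B1, was higher in the hypoxic library of each culture. The part of shared reads in that was not tested.

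FXYD2, the gamma subunit that tunes the pump's affinity for its ions, stood at 1669, 3127, 546.5 and 1151 FPKM. Each 3D library exceeded the 2D library of the same oxygen level, and each hypoxic library exceeded its normoxic partner. Its exons are shared with the readthrough gene FXYD6-FXYD2, listed at 0.818 to 1.53 FPKM, so the division of reads between those symbols is uncertain. FXYD5, a related regulator, stood at 138.8, 167.7, 132.8 and 95.5 FPKM.

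**Figure D2:**
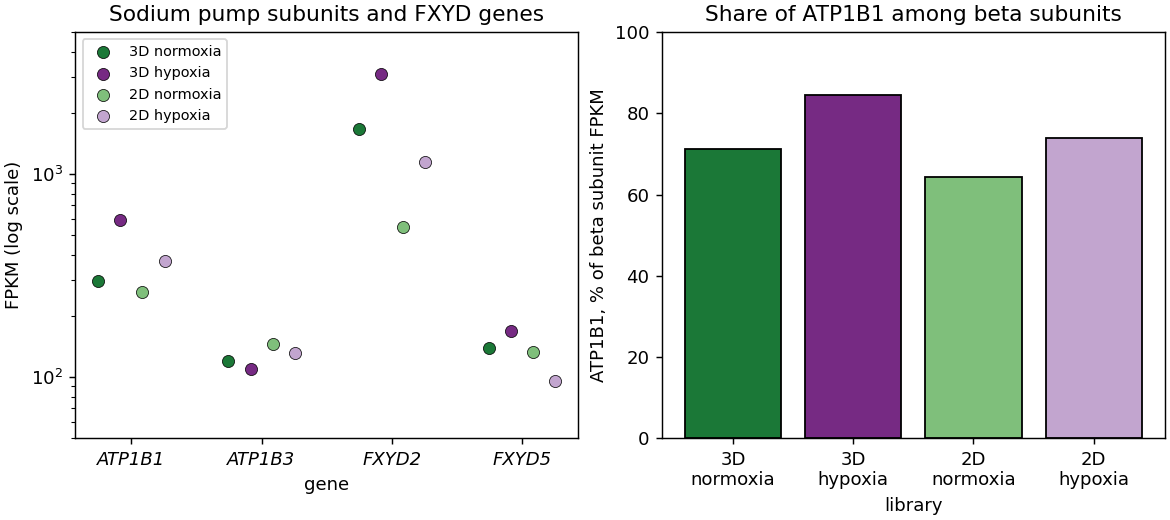
Left: FPKM (log scale) of sodium pump subunits and FXYD genes, 1 point per library. Right: ATP1B1 as a percentage of the summed FPKM of ATP1B1, ATP1B2 and ATP1B3; the bars reach 71.3%, 84.4%, 64.3% and 73.9%, and FXYD2 and ATP1B1 are higher in the hypoxic library of each culture while ATP1B3 is not.

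The exporter subunits were unequal. On Matrigel SLC51B stood at 38.1 FPKM under normoxia and 15.8 under hypoxia, and on the dish at 22.8 and 2.86, a 13.3-fold span that rested on about 421.6, 169.1, 508.8 and 103.3 fragments. The hypoxic library was the lower one in both cultures, and the 3D library the higher one at both oxygen levels. SLC51A, its partner, stood at only 0.493, 0.193, 0.151 and 0.113 FPKM, on about 8.5, 3.2, 5.3 and 6.3 fragments. SLC51B was thus 77.4, 82.1, 150.8 and 25.4 times SLC51A, ratios limited by the few fragments of SLC51A. SLC51A also overlaps PCYT1A on the other strand (12.9 to 17.97 FPKM), and SLC51B overlaps RASL12 (at most 0.139 FPKM). NR1H4, the bile acid receptor that induces both subunits in liver and gut, stood at 2.69, 3.44, 0.883 and 0.376 FPKM, higher in both 3D libraries.

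The comparison of hypoxia with normoxia in 3D addressed the condition in which the structures form. A change of at least 2-fold was counted. None of the 6 expressed genes was at least 2-fold higher, against 2.91% of all 12663 genes, and AQP3 and SLC51B were at least 2-fold lower, against 1.11% of all genes. Their log2 ratios were -1.31 (counting error 0.04) and -1.22 (0.12). SLC12A2 was at -0.69, SCNN1A at -0.49 and ATP1B3 at -0.13. ATP1B1 was just short of the threshold at 0.99 and passed it, at 1.01, when libraries were scaled by the median ratio, which made 1 member at least 2-fold higher. The median of the 6 genes was -0.59 beside -0.02 for all genes. The members were chosen with AQP3 known to stand out in 3D and SLC51B known to be low in 2D hypoxia. Nothing is therefore read from that count or median.

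In 2D the same contrast gave larger negative ratios. At least 2-fold lower were AQP3 at -2.51 (counting error 0.07), SLC51B at -2.62 (0.12) and SLC12A2 at -1.49 (0.02), against 1.59% of all genes, and none was at least 2-fold higher, against 2.01% of all genes. SCNN1A was just outside the threshold at -0.998 (0.09), and among 5 alternative settings passed it with a pseudocount of 0.1 FPKM (-1.51) and when the FPKM of each library were scaled to add up to 1000000 (-1.33), while a pseudocount of 5 FPKM gave -0.41. ATP1B1 stood at 0.50 and ATP1B3 at -0.14. The median of the 6 genes was -1.24, with 0.00 for all genes. AQP3 and SLC51B were known from this contrast, so that nothing is read from that count or median.

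Matrigel was then set against the dish. In normoxia AQP3 alone was at least 2-fold higher in 3D, at 2.49 (counting error 0.04), against 1.98% of all genes, and none of the 6 was at least 2-fold lower, against 2.49%. SCNN1A stood at 0.80, SLC51B at 0.72, SLC12A2 at 0.39, ATP1B1 at 0.18 and ATP1B3 at -0.28. The sign of ATP1B1 turned to -0.02 on that rescaling, so its direction between cultures in normoxia is not settled. In hypoxia 4 of the 6 passed 2-fold in favour of 3D, against 3.80% of all genes, and none was at least 2-fold lower, against 3.02%. These were AQP3 at 3.69 (counting error 0.07), SLC51B at 2.13 (0.15), SCNN1A at 1.30 (0.11) and SLC12A2 at 1.19 (0.03), while ATP1B1 stood at 0.67 and ATP1B3 at -0.26. With a pseudocount of 5 FPKM SCNN1A stood at 0.57 and no longer passed, leaving 3 members, and SLC51B stood at 1.41. Since the members were chosen with the culture contrast in view, nothing is read from those shares. The hypoxia and culture comparisons share libraries, and the low values of 2D hypoxia enter both the 2D hypoxia ratios and the 3D against 2D ratios in hypoxia.

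**Figure D3:**
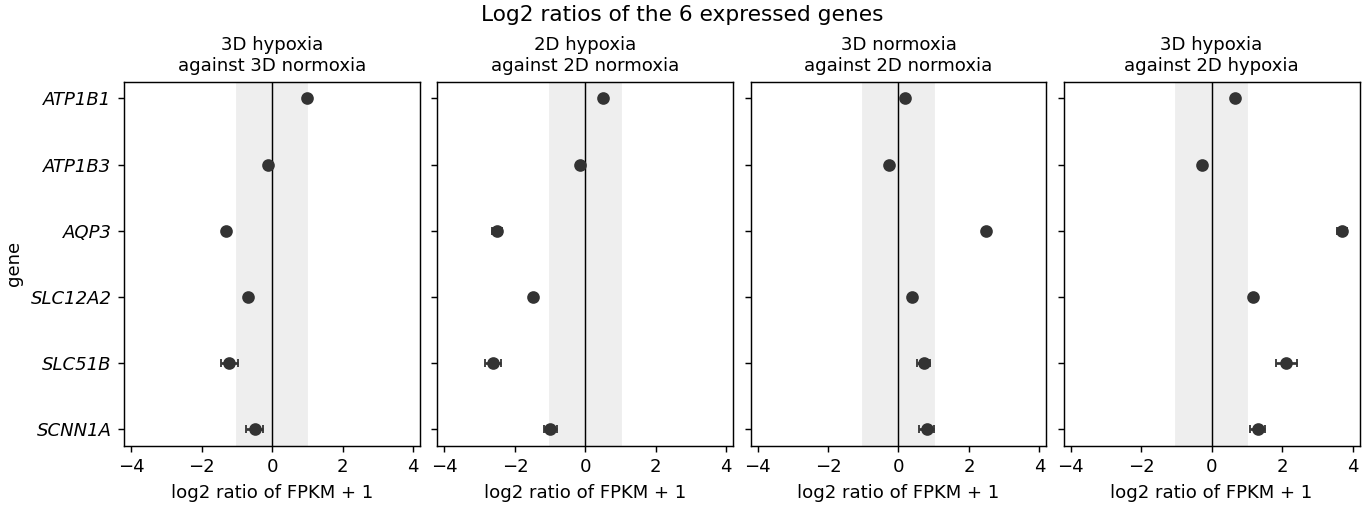
Log2 ratios of FPKM + 1 for the 6 expressed genes in the 4 pairwise comparisons, with 95% counting intervals; the grey band holds ratios under 2-fold. AQP3 and SLC51B lie left of the band in both hypoxia panels, and AQP3 lies right of it in both culture panels, at 2.49 and 3.69.

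Scaling every library to add up to 1000000 moved the median of all genes by -0.12 and -0.13 in the hypoxia comparisons in 3D and 2D and by -0.18 in both culture comparisons. It took the share of higher genes among all those past 2-fold from 72.3% to 58.1% for hypoxia in 3D, from 55.9% to 40.9% for hypoxia in 2D, from 44.3% to 21.7% for culture in normoxia and from 55.7% to 35.8% for culture in hypoxia. Under it the counts of members past 2-fold were 2, 4, 1 and 4 in that order. Over all genes, 327 were then higher and 236 lower for hypoxia in 3D, and 236 and 341 for hypoxia in 2D. For culture, 195 were higher and 704 lower in normoxia, and 407 and 731 in hypoxia.

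The hypoxia response was set side by side for the cultures. The log2 ratio in 3D minus that in 2D was 1.20 for AQP3, 1.41 for SLC51B, 0.80 for SLC12A2, 0.50 for SCNN1A, 0.49 for ATP1B1 and 0.01 for ATP1B3. AQP3, SLC51B, SLC12A2 and SCNN1A were thus less reduced in 3D than in 2D, and ATP1B1 was raised more. The low 2D hypoxia values of AQP3 and SLC51B, known when the members were chosen, enter these differences. With 4 libraries this difference has no error term across cultures and was not tested.

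**Figure D4:**
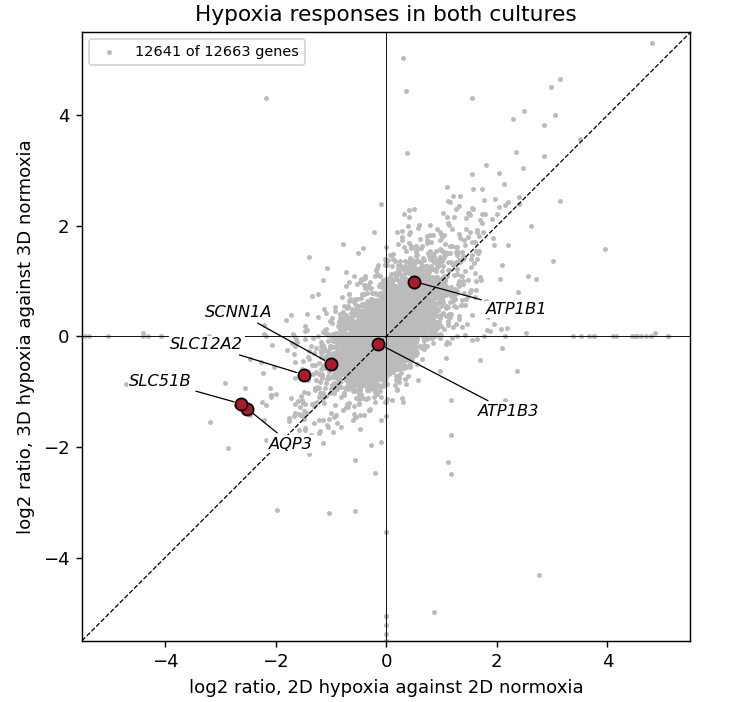
Log2 ratio of hypoxia against normoxia in 3D (vertical) and in 2D (horizontal) for 12641 of the 12663 expressed genes (grey; 22 lie outside the axes), with the 6 members in red and the line of equal response dashed. All 6 members lie on or above the line: AQP3, SLC51B, SLC12A2 and SCNN1A are low on both axes and lower in 2D, and ATP1B1 is high on both.

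Averaging leaves an error term, both for hypoxia over the cultures and for culture over the oxygen levels. Of these averages, that of hypoxia was tested, and that of culture is not reported here. The average hypoxia effect was fitted with limma over all 12663 genes with culture as an additive term and 1 residual degree of freedom. Its p-values were adjusted by Benjamini-Hochberg over all genes. For AQP3 and SLC51B, known beforehand to be low in 2D hypoxia, the estimates are a description: -1.91 ± 0.28 (SE) and -1.92 ± 0.32. Of the other 4 expressed members, 1 fell and 0 rose, where limma called 1.64% of all genes as fallen and 3.20% as risen. SLC12A2 fell by 1.09 ± 0.20 (SE) on the log2 scale, limma adjusted p = 0.0468. It was lower in both cultures, as any gene called as fallen by this fit must be. The call of SLC12A2 sits close to the threshold, and it was lost in 4 of 8 alternative settings, with a limma adjusted p up to 0.159. ATP1B1 had an effect of 0.75 ± 0.17 (limma adjusted p = 0.0694) and SCNN1A one of -0.75 ± 0.18 (limma adjusted p = 0.0759), and neither passed. Both, like SLC12A2, had an unadjusted limma p under 0.05, but so had 3242 of all 12663 genes. ATP1B3 had an effect of -0.14 ± 0.12 (limma adjusted p = 0.525). With 1 library per group, the residual of this fit is the difference between the hypoxia responses in 3D and 2D, moderated over all genes. The p-values set the average effect against that difference and measure no spread between replicates. The labels do not state separate experiments.

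The other genes of these pathways were taken from 8 lists holding 122 genes, of which 67 were expressed. Of the 67, limma called 6 risen and 4 fallen in the average hypoxia effect, where it called 3.20% of all genes as risen and 1.64% as fallen, and their median effect was 0.01 beside -0.01 for all genes. ANO6, a calcium-activated scramblase and ion channel, rose by 1.05 ± 0.14 (limma adjusted p = 0.0251). FXYD2 rose by 0.99 ± 0.16 (limma adjusted p = 0.0347). NEDD4, a ubiquitin ligase of the family that removes ENaC from the membrane, rose by 0.95 ± 0.13 (limma adjusted p = 0.0251), and SGK1, a kinase that opposes that removal, by 0.74 ± 0.13 (limma adjusted p = 0.0427). OXSR1, a kinase that activates SLC12A2, and SLC6A6, the taurine transporter used in volume regulation, rose by 0.61 each, with limma adjusted p of 0.0477 and 0.0479. All 6 were higher in the hypoxic library of both cultures, which a call from this fit requires, so it is no separate check.

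Of the 4 that fell, KCNK5, a potassium channel of epithelia, stood at 14.7, 5.96, 7.71 and 2.02 FPKM and fell by 1.35 ± 0.14 (limma adjusted p = 0.0125). KCNN4, the calcium-activated potassium channel that supports chloride secretion, fell by 0.80 ± 0.12 (limma adjusted p = 0.0295). SLC4A11, a proton and water transporter of corneal and renal epithelium, fell by 1.03 ± 0.16 (limma adjusted p = 0.0318). SLC9A3R1, the scaffold that holds CFTR and other transporters at the apical membrane, stood at 70.0, 41.5, 37.1 and 18.2 FPKM and fell by 0.86 ± 0.12 (limma adjusted p = 0.0294). All 4 were lower in hypoxia in both cultures, which the call likewise requires. Of these 10 calls, that of KCNK5 held in 7 of 8 alternative settings and that of SLC6A6 in 2 of 8, with the others between.

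By list, beside the 3.20% of all genes that limma called as risen and the 1.64% as fallen, sodium pump and FXYD genes had 1 of 5 expressed genes rise, and the sodium channel partners and regulators had 2 of 7 rise. Chloride channels and anion exchangers had 1 of 16 rise and 1 fall. Cation-chloride cotransporters and their kinases had 2 of 11 rise, sodium-proton and sodium-bicarbonate transporters 1 of 11 fall, and potassium channels 2 of 6 fall. By limma, 0 of 2 aquaporins and 0 of 9 genes of bile acid and steroid transport were called. Of these, 1 and 2 had an unadjusted limma p under 0.05, as had 3242 of all 12663 genes, so nothing is read from that. Between cultures in hypoxia, 8 of the 67 passed 2-fold in favour of 3D and 5 in favour of 2D, against 3.80% and 3.02% of all genes, with a median of -0.16 beside -0.03 for all genes. SLC9A3R2, the paralog of SLC9A3R1, stood at 1.79, AQP7 at 1.70, NR1H4 at 1.69 and TSC22D3, a glucocorticoid-induced regulator of ENaC, at 1.45 (log2 ratio of 3D against 2D hypoxia), and the potassium channel KCNMA1 at -1.85.

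**Figure D5:**
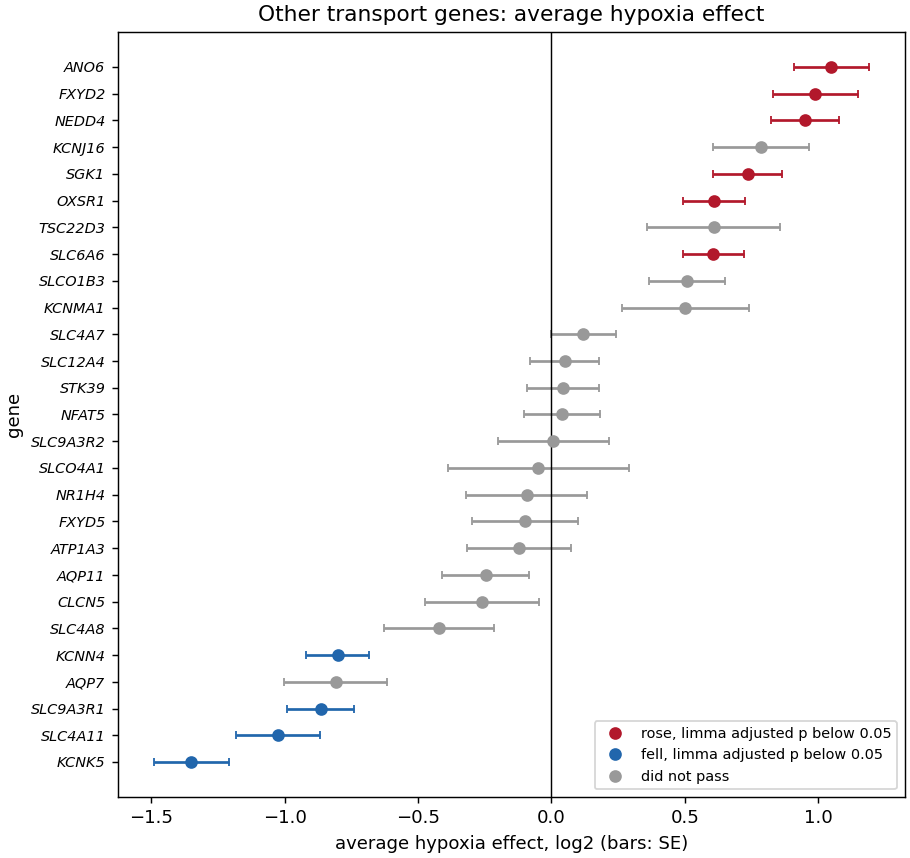
Average hypoxia effect (log2, bars show the SE from limma) of the other transport genes chosen by the naming rule, in red where they rose, blue where they fell and grey where they did not pass. ANO6 is highest at 1.05 and KCNK5 lowest at -1.35.

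The genes most like AQP3, SLC51B and SLC12A2 over the 4 libraries were sought among 9001 other genes averaging 5 FPKM or more, by the Euclidean distance between log2 values centred on each gene's mean. The nearest to AQP3 were MUC5AC, a gel-forming mucin (distance 0.18), S100P (0.56), MUC5B, another gel-forming mucin (0.66), and CLDN2, a cation-selective tight junction protein (0.85). MUC5AC stood at 61.5, 22.4, 10.8 and 1.14 FPKM, the same order as AQP3. The nearest to SLC51B were APOH, a plasma glycoprotein (0.36), C10orf91 (0.49), SPDEF, a transcription factor of goblet cells (0.51), and PLA2G4A, a phospholipase that frees arachidonic acid (0.52). The nearest to SLC12A2 were STEAP1, a membrane metalloreductase (0.21), TSPAN13, a tetraspanin (0.24), RDH10, a retinol dehydrogenase (0.30), and DACT2 (0.33). Among the members, SCNN1A was at 0.46 from SLC12A2, and SLC51B was at 1.67 from AQP3. With 4 points per gene these distances describe the libraries and are no measure of shared control.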

How the data were processed

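RNA of A549 cells was measured in 4 libraries, 1 per group. The preparation kit was TruSeq Stranded mRNA, per the labels' protocols. Cuffdiff 2.2.1, TopHat2 2.1.1, SAMtools 0.1.18 and Bowtie2 2.2.8 are named, with build hg19, in the submitters' processing notes. Each file that the authors deposited holds FPKM by gene symbol, per the file headers. The annotation, the scaling of libraries and the strand setting used are not given in those sources. FPKM is not a count, so no count model was used.

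Values were taken as log2(FPKM + 1) over genes averaging 1 FPKM or more. Pairs of libraries were described by size (2-fold), and the average hypoxia effect was tested in R 4.3.3 with limma 3.58.1 (mean trend on, culture as additive term, 1 residual degree of freedom, Benjamini-Hochberg over 12663 genes, threshold 0.05). Checked on simulated data, limma recovered most known changes, but made false calls above the nominal rate under 1 of 3 settings of the gene variances. Depth was inferred by taking the commonest low value of FPKM times length as 1 fragment, among 2134 genes with a single transcript over 1000 bases in GENCODE 29; only 78 to 98 genes lay near it, and that annotation is of another build. Member fragments use the longest coding transcript. Python 3.11.15, matplotlib 3.10.9, pandas 2.3.3 and numpy 2.4.6 did the rest.

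1 listed gene is not reported here. Members and gene lists were chosen with earlier results of these data known. Beside the members, the text names from each list the 3 expressed genes with the largest ratio in any pair, genes called by limma and fixed partner subunits (not all are described here), and the 4 most alike genes. Alternatives covered the pseudocount, library scaling, the filter, the limma trend and the genes fitted.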

Additional observations from a re-analysis of the deposited data

Results flagged for a closer look

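Among the members and the other transport genes named or eligible to be named, 7 differed from their normoxic library in opposite directions in the 2 cultures, by more than the 95% counting interval in each. None of the 7 was a member. Cell type markers are not included in this count. The share of all genes that do so is not given here, so nothing is read from the count. The counting interval leaves out library scaling. Scaling every library to add up to 1000000 moved the median of all genes by -0.12 in 3D and -0.13 in 2D. The smallest ratios below are of that size. The difference between cultures was not tested, since each culture has 1 library per oxygen level. The values are log2 ratios of hypoxia against normoxia. FXYD5 stood at 0.27 in 3D and -0.47 in 2D. SLC9A3R2 stood at 0.42 in 3D and -0.41 in 2D. SLCO4A1, an organic anion transporter, stood at 0.71 in 3D and -0.81 in 2D. SLC12A4, a potassium-chloride cotransporter, stood at 0.21 in 3D and -0.11 in 2D. STK39, a kinase that acts on SLC12A2 like OXSR1, stood at 0.23 in 3D and -0.14 in 2D. NFAT5, the transcription factor of the response to hypertonicity, stood at 0.25 in 3D and -0.17 in 2D. CLCN5, an endosomal chloride-proton exchanger, went the other way, at -0.64 in 3D and 0.12 in 2D.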

How the results depend on the processing

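The counts of members past 2-fold stayed within 1.5 times of the reported count in all 4 pairs under the 6 alternatives of pseudocount, scaling and filter. Of 140 alternative values of the members' log2 ratios, 1 changed sign, that of ATP1B1 between cultures in normoxia (-0.02 after rescaling to a sum of 1000000). The limma calls were less stable. Of the 4 members tested, 1 was called as reported. The count was 0 with a pseudocount of 5 FPKM, after scaling by the median ratio, without a filter on low values and without trend. It was 3 when small RNA genes and genes at 0 in any library were dropped. Among genes averaging 5 FPKM or more it was 2, and SCNN1A, with a mean of 3.36 FPKM, was not fitted there. Of the 67 other transport genes, 10 were called as reported and 10 with a pseudocount of 0.1 FPKM. On rescaling to 1000000 it was 8, and it was 7 after scaling by the median ratio and 7 without trend. It was 14 when small RNA genes and genes at 0 were dropped, and 11 among genes averaging 5 FPKM or more, where not all were fitted. It was 1 with a pseudocount of 5 FPKM and 0 without a filter on low values. Without that filter limma called 5 of 19356 genes over all, and 3589 had an unadjusted p under 0.05. Over all genes limma called 405 up and 208 down as reported, 87 and 39 with a pseudocount of 5 FPKM, and 303 and 475 on rescaling to 1000000. It called 320 and 133 after scaling by the median ratio, 507 and 313 among genes averaging 5 FPKM or more, and 254 and 112 without trend. When small RNA genes and those at 0 were dropped, it called 755 and 531. The cause of these differences was not tested. Effects near 0 that did not pass changed sign on rescaling to a sum of 1000000 for SLC9A3R2 (-0.13), SLC12A4 (-0.0763), STK39 (-0.0854), NFAT5 (-0.0922) and SLC4A7 (-0.0022), and for NR1H4 with a pseudocount of 5 FPKM (0.0024). No library was left out in turn, since each group has 1. The culture term of the limma fit sets hypoxia against normoxia within each culture. No paired analysis by replicate number was possible because the labels give none. Depth limits AQP1, CFTR and SLC51A, which rest on few fragments.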
